A study of Mus musculus with 2 samples.

Results

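Expression of 10 genes that carry sterol into, through and out of the intestinal cell was compared between mice on 2 diets. The genes were Npc1l1, Abcg5, Abcg8, Abca1, Scarb1, Soat1, Soat2, Mylip, Npc1 and Npc2, and they were taken by name as every non-control probe that the array files assign to them. This gave 15 probes of 41165, and 10 genes of the 17150 that could be measured. The RNA came from the small intestine of C57BL/6 mice of 6 to 8 weeks. One diet was a conventional chow (Conv), and the other was a food antigen-free diet with amino acids (FAF) that had been kept up for as many as 5 generations. The labels mention specific-pathogen-free and germ-free mice without saying which gave this RNA, and they give neither the gut segment nor whether mice were pooled. Both arrays carried the same pair of RNA samples with the dyes exchanged, so there was 1 RNA sample per diet.

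Cholesterol and plant sterols enter the enterocyte at the brush border through NPC1L1, and the ABCG5/ABCG8 heterodimer pumps them back into the gut lumen. Inside the cell SOAT2 esterifies cholesterol for chylomicrons, NPC1 and NPC2 move it out of lysosomes, and ABCA1 passes it to apolipoprotein A-I at the basolateral side. Oxysterols activate the nuclear receptors LXR alpha and beta, for which Abca1, Abcg5, Abcg8 and Mylip are classical targets, while a shortage of sterol activates SREBP2 and the genes of cholesterol synthesis.

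Abcg5 and Abcg8 are transcribed away from each other from a common stretch of chromosome 17. By the brightest probe of each gene, though not by the dimmer Abcg8 probe, they had nearly the same ratio here, as had Abca1. The promoter sequences of these genes are therefore shown, with that of Npc1l1, the gene of the opposite transport step, beside them. They are RefSeq sequences of build GRCm38.p6, where windows were found for 7 of the 10 genes. The stretch between the starts of Abcg5 and Abcg8 holds 109 bases, at chr17:84683012-84683120, and is printed on the plus strand, the strand of Abcg8. A second RefSeq start of Abcg8, at 84676302, lies outside this stretch, and its window is not printed. For Abca1 (chr4:53159896-53160015, minus strand) and Npc1l1 (chr11:6230246-6230365, minus strand) the 120 bases before the start are printed. Each is read 5′ to 3′, and capitals mark matches to the motifs named after them.
Abcg5 to Abcg8: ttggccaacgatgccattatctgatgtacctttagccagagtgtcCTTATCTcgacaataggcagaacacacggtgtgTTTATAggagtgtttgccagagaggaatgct
Abca1: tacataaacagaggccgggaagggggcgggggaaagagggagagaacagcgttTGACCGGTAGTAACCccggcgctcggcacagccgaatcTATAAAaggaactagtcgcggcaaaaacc
Npc1l1: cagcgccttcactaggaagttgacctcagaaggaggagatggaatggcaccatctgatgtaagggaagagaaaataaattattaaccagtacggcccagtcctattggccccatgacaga

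4 motifs were searched on both strands over the whole promoter windows, from 250 bases before to 50 after each start. A direct repeat of the LXR type, searched as GGTNA, 5 free bases and GGTNA again, was found in the Abca1 window as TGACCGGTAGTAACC, 67 bases before the start, and in 0.718% of the 32851 RefSeq windows. A TATA box, TATAAA, lay 29 bases before the start of Abca1 and 32 before that of Mylip, and the common stretch holds 1, on the strand of Abcg5, 84 bases before the start of Abcg5 and 31 before that of Abcg8. It is present in 13.6% of all windows. The GATA box AGATAAG stood once between Abcg5 and Abcg8 and once before Npc2, against 3.04% of all windows. The sterol response element TCACNCCAC, present in 1.24% of all windows, matched in none of the members' windows. None of the 4 motifs matched in that of Npc1l1 or Soat1, or in the window of the second Abcg8 start. The matches do not overlap each other. They are a description of letters, and these arrays measured no binding.

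All 10 genes were measured, through 13 of their 15 probes. Measured means brighter than the scanner software's background limit on both arrays in 1 diet or the other, and these 13 passed in both diets. The values below are intensities after normalisation, which describe 1 probe and are not compared between genes, and log2 ratios of FAF over Conv. Ratios are means of the arrays, and ± gives how far each array lay from that mean. It holds dye and hybridisation error only, had a median of 0.06 over all 17150 genes and reached 0.10 among the 10. Since each diet has 1 RNA sample, no test or p-value is given and the spread between mice is unknown. A gene is called higher or lower where the mean ratio was at least 2-fold and each array gave at least 1.5-fold the same way.

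By this rule 3 of the 10 were called higher in FAF and 0 lower, while over all genes 1.53% were higher and 0.88% lower. The 3 were Abcg8, Abca1 and Abcg5. With the mean limit lowered to 1.5-fold and any same-signed pair of arrays allowed, Npc1l1 and Scarb1 joined them, making 5 of 10 higher against 4.52% of all genes, and 0 of 10 lower against 3.59%. The median ratio of the 10 genes was 0.48, against -0.00086 over all genes. The ratio was above 0 on both arrays for 7 genes, below 0 on both for Soat1, and of opposite signs for Npc1 and Npc2. By the mean of the arrays, 80% of the 10 genes were above 0, against 49.8% of all genes.

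**Figure D1:**
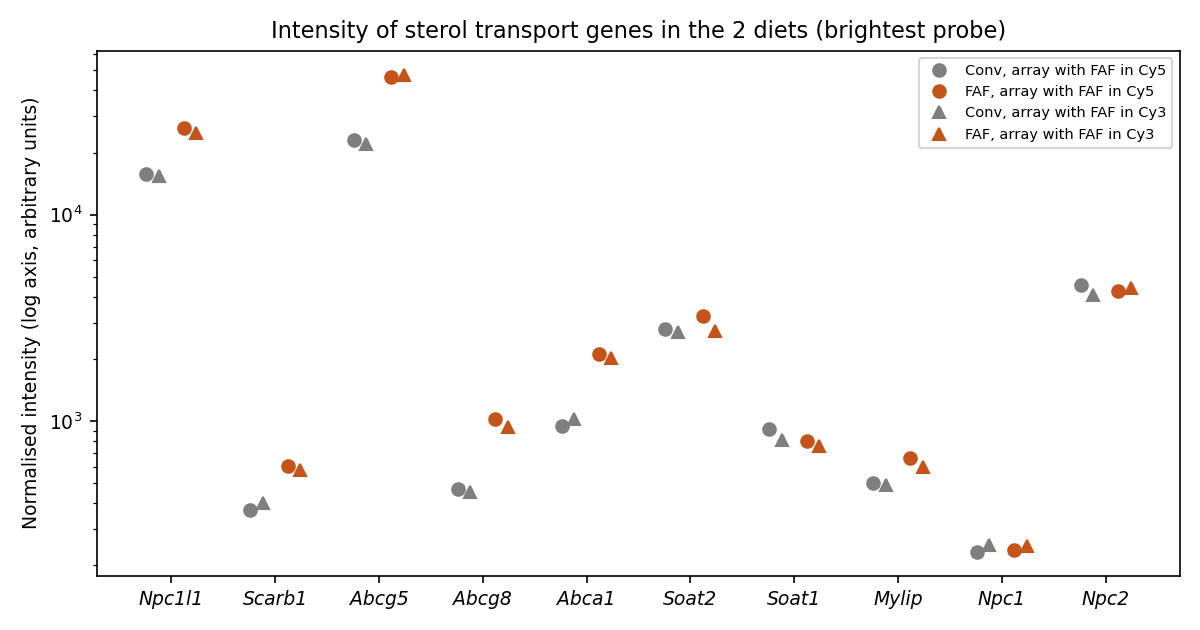
Normalised intensity (log axis, arbitrary units) of the brightest probe of each gene in Conv (grey) and FAF (orange), with circles for the array that had FAF in Cy5 and triangles for the one with FAF in Cy3. Both FAF points lie above both Conv points for Npc1l1, Scarb1, Abcg5, Abcg8, Abca1 and Mylip, both lie below for Soat1, and the diets overlap for Soat2, Npc1 and Npc2.

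RNA of both subunits of the brush border efflux pump was higher in FAF. Abcg5, which with ABCG8 forms the sterol exporter, had intensities of 46573 and 47707 in FAF and of 22961 and 22042 in Conv, on the array with FAF in Cy5 and on the dye-swapped array in turn. Both FAF values lay about 2-fold above both Conv values, with a log2 ratio of 1.07 ± 0.05 (2.1-fold). The probe lies on chromosome 17 at 85057604 to 85057663 in build mm9, from base 2173 of transcript NM_031884.

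Abcg8, the other subunit, had 2 measured probes. The brighter, from base 2728 of NM_026180 (chromosome 17, 85098745 to 85098804, mm9), gave 1018 and 937 in FAF against 468 and 454 in Conv, a ratio of 1.08 ± 0.04 (2.12-fold). The dimmer, from base 1137 (85094401 to 85094460), gave 402 and 418 against 248 and 254, a ratio of 0.71 ± 0.01 (1.63-fold), which is short of the rule. The FAF values were higher on both arrays with either probe, but the ratios of the probes differed by 0.37 ± 0.05, more than the distance between arrays. Under the scanner software's own log ratio, which adds no offset to dim spots, the probes stood at 1.21 and 0.91, and the gap was 0.30 ± 0.03. The sequence of the dimmer probe is given because the call of Abcg8 depends on which probe stands for the gene.
Abcg8 A_51_P298480: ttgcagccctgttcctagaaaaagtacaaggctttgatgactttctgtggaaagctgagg

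The 2 subunits were alike in ratio. Abcg5 minus Abcg8, by brighter probe, was -0.02 ± 0.09, negative on one array and positive on the other. The dimmer Abcg8 probe stood below Abcg5 and equal to Npc1l1 within the distance between arrays, at 0.00342 ± 0.03 from the latter. This last likeness held with the offset of 50, whereas the software's log ratio put the dimmer probe 0.19 ± 0.01 above Npc1l1.

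Abca1, which loads cholesterol and phospholipid onto apolipoprotein A-I to start HDL, was higher by about the same factor. Its intensity was 2117 and 2028 in FAF and 950.5 and 1022 in Conv, and the diets did not overlap. The ratio was 1.07 ± 0.08 (2.1-fold), measured from base 9917 of NM_013454 on chromosome 4, 53043944 to 53044003 in mm9. The dye-swapped array taken alone put it at 0.99, just under 2-fold. When each array was centred on its median in place of loess, none of the 3 passed on each array, although their means stayed past 2-fold. Abcg8, Abca1 and Abcg5, by brightest probe, took places 222, 226 and 227 from the top among the 17150 genes. By these probes no pair of them differed by more than the distance between arrays.

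**Figure D2:**
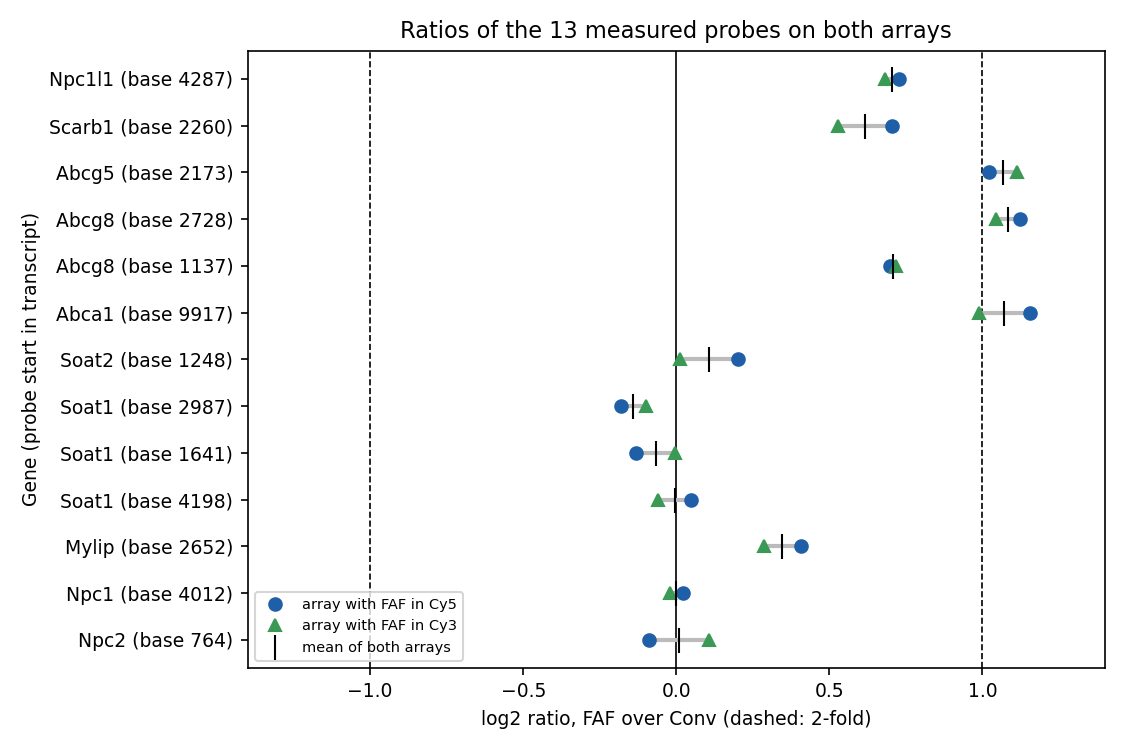
Log2 ratios of FAF over Conv for the 13 measured probes, named by gene and by the base of the transcript at which the probe starts, with a circle and a triangle for the arrays, a black tick for their mean, and dashed lines at 2-fold. Abcg5, the Abcg8 probe from base 2728 and Abca1 have means beyond the line at 2-fold, Npc1l1 and Scarb1 lie between 0.53 and 0.73, and the 3 Soat1 probes lie near 0.

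Both uptake genes were higher in FAF by less than 2-fold. Npc1l1, the sterol importer of the brush border that ezetimibe blocks, had intensities of 26186 and 24765 in FAF and of 15797 and 15447 in Conv. The FAF values exceeded the Conv values on both arrays, and the ratio of 0.71 ± 0.02 (1.63-fold) had a ± at the 23.21 percentile of all genes. Its probe starts at base 4287 of NM_207242, on chromosome 11 at 6111238 to 6111297 in mm9. Scarb1, the receptor SR-B1 that takes up cholesteryl ester from HDL, had 605 and 579 in FAF and 371 and 402 in Conv. Its ratio was 0.62 ± 0.09 (1.53-fold), from base 2260 of NM_016741 on chromosome 5, 125757658 to 125757717 in mm9. Npc1l1 and Scarb1 took places 541 and 696 from the top, and they differed by 0.09 ± 0.07.

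The 3 efflux genes exceeded Npc1l1 in ratio on both arrays. The difference was 0.36 ± 0.07 for Abcg5, 0.38 ± 0.01 for the brighter Abcg8 probe and 0.37 ± 0.06 for Abca1. It was absent for the dimmer Abcg8 probe, as given above. These differences describe the 2 RNA samples and were not tested.

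Mylip encodes IDOL, a ubiquitin ligase that marks lipoprotein receptors for degradation. Its measured probe, from base 2652 of NM_153789 on chromosome 13 (45506979 to 45507038, mm9), gave 664 and 601 in FAF and 501 and 492 in Conv. The ratio of 0.35 ± 0.06 (1.27-fold) was above 0 on both arrays, at place 1939 from the top, and passed neither size. The other Mylip probe, from base 1125, was not well above background on any array. Of the receptors that IDOL acts on, Vldlr had a ratio of -0.20 ± 0.02 and Lrp8 was not measured. Scarb1 exceeded Mylip by 0.27 ± 0.03 and Mylip exceeded Soat2 by 0.24 ± 0.04, the same way on both arrays.

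The esterifying enzymes were close to level between the diets. Soat2, the form of enterocytes and liver, had 3226 and 2733 in FAF and 2807 and 2712 in Conv, a ratio of 0.11 ± 0.09. The diets overlapped, and the array with FAF in Cy5 gave 0.20 against 0.01 on the other. The probe of 60 bases, from base 1248 of NM_146064, covers 918 bases of chromosome 15 (101991526 to 101992443, mm9) and so crosses a splice junction. It is shown for that reason, since it reads spliced RNA.
Soat2 A_51_P196997: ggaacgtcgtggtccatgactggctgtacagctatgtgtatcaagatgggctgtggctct

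Soat1, the widely expressed form that is abundant in macrophages, was the lowest of the 10 genes. Its brightest probe, from base 2987 of NM_009230 (chromosome 1, 158359977 to 158360036, mm9), gave 803 and 757 in FAF and 910.5 and 810.4 in Conv, a ratio of -0.14 ± 0.04 at place 12343. The probes from bases 1641 and 4198 had ratios of -0.07 ± 0.06 and -0.01 ± 0.05. The last of these changed sign between the arrays, and none of the 3 reached 1.5-fold. Soat2 minus Soat1 was 0.25 ± 0.14.

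The lysosomal pair did not differ between the diets beyond the distance between arrays. Npc2, the soluble protein that hands cholesterol to NPC1, had 4282 and 4391 in FAF and 4553 and 4078 in Conv, a ratio of 0.01 ± 0.10, from base 764 of NM_023409 on chromosome 12 (86097947 to 86098006, mm9). Npc1, the lysosomal membrane protein to which NPC1L1 is related, had 236 and 249 in FAF and 233 and 252 in Conv, a ratio of -0.00017 ± 0.02 from base 4012 of NM_008720. In both genes the FAF and Conv values overlapped. A further Npc1 probe, made to transcript ENSMUST00000149211, was likewise not well above background. Npc1l1 exceeded its relative Npc1 by 0.71 ± 0.00270, nearly the same on each array.

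**Figure D3:**
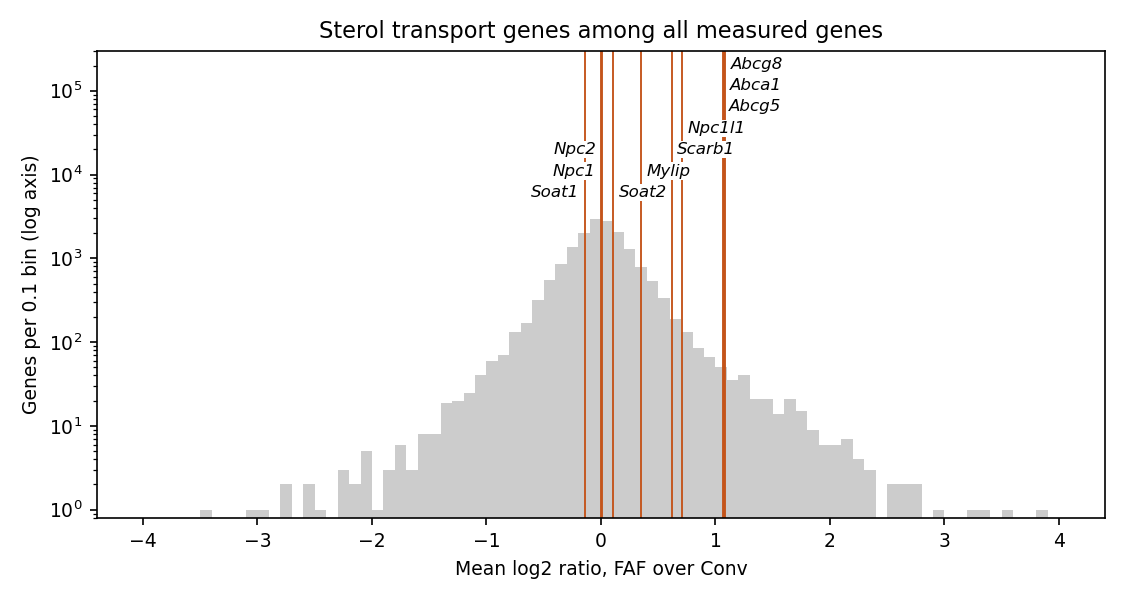
Number of genes per 0.1 bin of the mean log2 ratio of FAF over Conv (log axis) for all 17150 measured genes, with orange lines at the 10 sterol transport genes. Abcg8, Abca1 and Abcg5 lie together near 1.07 in the upper tail, Npc1l1 and Scarb1 at 0.71 and 0.62, and Npc2, Npc1 and Soat1 in the middle of the distribution.

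In the order of their ratios, the 10 genes thus formed steps. By brightest probe Abcg8, Abca1 and Abcg5 were not separable, Npc1l1 and Scarb1 stood next and close to each other, and Mylip followed. Soat2 minus Npc2, at 0.10 ± 0.19, and Npc1 minus Npc2, at -0.00926 ± 0.12, changed sign between the arrays. Npc1 minus Soat1 was 0.14 ± 0.06.

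Other genes of sterol and lipid handling were set beside these 10. Of 16 measured LXR receptors and other LXR targets, 2 were called higher, 4 lower, and the median was -0.05. The higher ones were Apoc2, an activator of lipoprotein lipase, at 1.98 ± 0.24 and the lipogenic regulator Srebf1 at 1.23 ± 0.01. The lower ones included the desaturases Scd1 at -1.39 ± 0.21 and Scd2 at -1.37 ± 0.05, and lipoprotein lipase Lpl at -1.27 ± 0.19, or -0.72 on its other probe. The fourth was Apoc1, an apolipoprotein, at -1.19 ± 0.18. The sterol exporter Abcg1, related to Abcg5 and Abcg8, stood at -0.23 ± 0.14, and the receptors Nr1h3 (LXR alpha) and Nr1h2 (LXR beta) at 0.41 ± 0.05 and 0.11 ± 0.03. The list was thus mixed, with 8 genes above 0 and 8 below. Median centring left 1 higher and 2 lower, without Srebf1, Scd1 and Lpl, and averaging the probes of a gene also took Lpl below the rule, at -0.998.

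Cholesterol synthesis and other SREBP2 targets had 0 of 27 genes past the rule in either direction, with 19 below 0, 8 above and a median of -0.20. Squalene epoxidase Sqle was the lowest at -0.85 ± 0.14. Of 9 lipoprotein receptors and adaptors 1 was higher, the scavenger receptor Cd36 at 1.78 ± 0.11. Pdzk1, the scaffold that holds SR-B1 in the membrane, stood at 0.88 ± 0.00164 (1.85-fold), with 23684 and 23498 in FAF and 12814 and 12742 in Conv, short of 2-fold.

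Genes that move NPC1L1 within the cell gave 0 of 10 past the rule and a median of -0.00271. They ran from the flotillin Flot2 at -0.35 ± 0.06 to Lima1, which links NPC1L1 to myosin Vb, at 0.33 ± 0.02. Of 23 genes of intracellular sterol transport and oxidation 5 were called higher, 0 lower, and the median was 0.22. They were the sterol carrier Scp2 at 1.36 ± 0.07, the sterol 27-hydroxylase Cyp27a1 at 1.26 ± 0.04, the oxysterol-binding protein gene Osbpl1a at 1.18 ± 0.06, lysosomal acid lipase Lipa at 1.14 ± 0.07 and the sterol transporter Gramd1b at 1.22 and 0.98 on the arrays. Other probes of Lipa and Osbpl1a stood lower, at 0.31 and 0.63, and those of Gramd1b between 0.72 and 1.04. With probes averaged 2 of the 5 passed, Scp2 and Cyp27a1, and with median centring 3, these and Lipa.

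Chylomicron assembly had 5 of 15 genes higher, 0 lower, all 15 above 0 and a median of 0.60. Apolipoprotein Apoa4 led at 2.71 ± 0.03, then came Fabp1, which binds fatty acids in the enterocyte, at 2.02 ± 0.14, Dgat2 of triglyceride synthesis at 1.88 ± 0.05, Apoc3 at 1.19 ± 0.07 and Apob, the structural protein of chylomicrons, at 1.16 ± 0.04. Median centring left 3 of the 5, without Apoc3 and Apob, averaging the probes took Apob to 0.97, and the lower limit of 1.5-fold gave 8. Apoa1, the acceptor of ABCA1, stood at 0.82 ± 0.00442. Of 8 genes of bile acid supply and uptake 1 was higher, the apical exporter Abcc2 at 1.36 ± 0.09, with a median of -0.14. Not measured were Fabp6 and Fgf15.

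**Figure D4:**
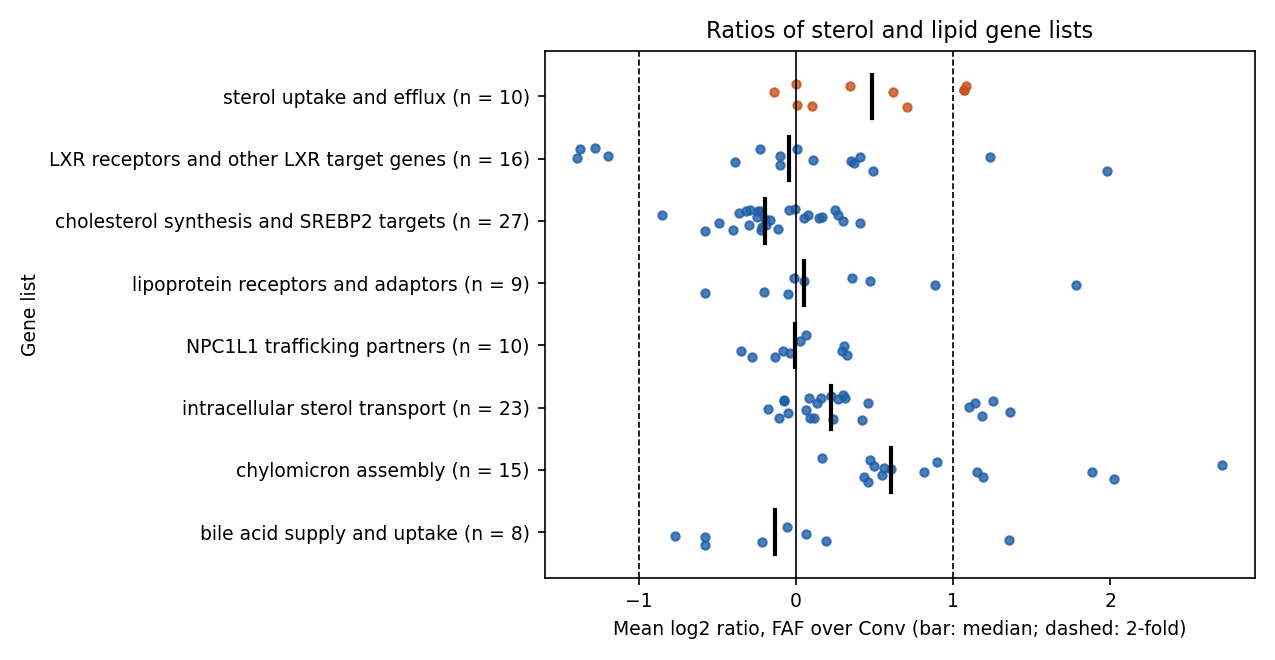
Mean log2 ratios of FAF over Conv, a point per measured gene, for the 10 sterol uptake and efflux genes (orange) and 7 lists of related genes (blue), with a bar at each median and dashed lines at 2-fold. The orange median is 0.48, chylomicron assembly has 0.60 with every gene above 0, and cholesterol synthesis has -0.20 with every gene inside the 2-fold lines.

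Markers of cell types moved between the samples too. In whole-tissue RNA fewer cells of a type and less RNA per cell cannot be told apart. Enterocyte markers were all measured, with 2 of 10 higher (Sis at 1.70 ± 0.07 and Alpi at 1.31 ± 0.10), 9 above 0 and a median of 0.38. Their summed intensity ran from 664073 to 674091 in FAF and from 416889 to 483046 in Conv. Such a sum over probes follows the brightest of them. Besides Sis, these included Fabp2 at 0.44 ± 0.23, Vil1 at 0.39 ± 0.09 and Krt20 at 0.38 ± 0.20. Anpep, also bright, was the 1 marker below 0, at -0.15 ± 0.17. Npc1l1 and Abcg5 are genes of this cell type, and the part of these markers in their ratios was not tested.

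Myeloid markers, of cells in which Abca1 and Soat1 are also active, had 0 of 13 higher and 1 lower, Cd14 at -1.08 ± 0.06. Above 0 were 9 of the 13, up to Csf1r at 0.61 ± 0.04 and Fcgr1 at 0.59 ± 0.04, and the median was 0.24. Their summed intensity was 48157 to 49612 in FAF and 54793 to 56738 in Conv, most of it from Lyz2, at 39159 and 38316 in FAF and 46092 and 48445 in Conv. All 13 were measured. Smooth muscle markers were all 10 below 0, with a median of -0.51, 0 past the rule and sums of 88317 to 89691 against 123820 to 135400.0 in Conv. Fat tissue markers had 4 of 8 lower, Cfd at -2.72 ± 0.02, Adipoq at -2.08 ± 0.00148, Car3 at -2.07 ± 0.00449 and Plin1 at -1.13 ± 0.04. The other Car3 probe stood at -0.55. The lipid droplet gene Cidec was higher at 1.06 ± 0.11, the median was -1.06, and Lep was not measured. The sums, 20861 to 22634 against 22480 to 23404, came mostly from Cidec and Fabp4, the latter at -0.39 ± 0.12. Of 8 T lymphocyte markers 2 were called lower, namely Cd5 at -1.05 ± 0.00871 and Cd8b1 at -1.33 ± 0.08, with a median of -0.37, sums of 2302 to 2353 against 3199 to 3489, and Cd4 not measured. Stomach markers had 2 of 5 higher, a median of 0.99 and sums of 990.008 to 1106 against 552 to 614. Those called were Gkn2 (2.5-fold) and Tff1 (2.44-fold), with Conv taken as no lower than the dimmest level well above background. Both, and Muc5ac, were measured through FAF alone, since Conv was not well above background. With only probes well above background in both diets, the list had 0 higher and a median of 0.40. Gkn1, Pgc and Atp4a of that list were not measured. Of 8 exocrine pancreas markers 1 was called higher, the zymogen granule gene Sycn at 1.28 ± 0.01, with 5 of 8 above 0 and a median of 0.07. Their sums, 17396 to 19441 against 20642 to 22194, were mostly Clps, at 18177 and 16174 in FAF and 19717 and 21195 in Conv. Cpa1, Cpb1, Cela1 and Cela3b were dim, at 79 to 114 over both diets, so the sums describe Clps rather than the list. Cpa1 and Cela3b were measured through FAF alone. With only probes well above background in both diets, the pancreas list had 1 higher and a median of 0.02. Cela2a, Prss2 and Pnlip were not measured. The part of these markers in the ratios of the 10 genes was not tested.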

How the data were processed

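The authors deposited 1 scanner file per array, written by Feature Extraction 11.5.1.1 of Agilent according to its header, with spot intensity per dye, local background, quality flags and a dye-corrected log10 ratio of Cy5 over Cy3. The deposited value table equals that log10 ratio to within 5e-08. Ratios were computed from mean intensity with limma 3.58.1 in R 4.3.3, using normexp with an offset of 50 and loess within each array, turned to FAF over Conv by the labelled dyes and averaged over the 2 arrays. Control spots and 192 spots with outlier flags were left out, 0 of them of the 10 genes, and 0 spots were saturated. The arrays correlated at 0.90 over genes, as a description. Between 60.9% and 64.3% of spots were well above background in each channel, and precision is limited by the number of arrays. A gene is represented by its brightest measured probe. RefSeq names (GRCm38.p6) were found for 27662 probes by accession, and 13503 kept the name in the array file. Positions of probes come from the scanner files (build mm9), and their exon or UTR class was not analysed here. Intensities per diet are after loess and quantile scaling of the mean intensity. The steps were tested on simulated data, in which brighter spots were changed by more than the genes called among the 10. Ratios near the 2-fold limit were not covered by it. The rule for naming took all 10 genes and, from each pathway list, up to 4 genes past the rule or otherwise the 2 of largest absolute ratio. Srebf1, Apoc1, Abcg1, Nr1h2, Nr1h3, Pdzk1, Vldlr, Gramd1b, Apob and Apoa1 were named besides, after their values were seen. Some genes of the lists are counted but not reported here by name. Of cell type lists the genes called, those not measured and some that carry the sums are named, also after values were seen. Alternatives were other background corrections, median centring, the software's ratio, other filters on dim probes, averaged probes, a lower fold limit and each array alone. The genes, lists and rule were chosen with earlier results of these data known.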

Additional observations from a re-analysis of the deposited data

How the results depend on the processing

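None of the called genes among the 10 and the lists changed sign under any alternative run. The log ratio of the scanner software and the deposited value table each gave 487 genes higher and 350 lower, against 263 and 151, kept Abcg5, Abcg8 and Abca1 as the 3 higher ones, and moved the median of the 10 genes from 0.48 to 0.54. Median centring gave 82 lower genes and 0 of the 10 higher, since a dye trend then stays in each array and separates them (correlation 0.16), while the mean ratios of Abcg5, Abcg8 and Abca1 stayed past 2-fold. Lowering the mean limit to 1.5-fold, with any same-signed pair of arrays, gave 775 genes higher, 616 lower and 5 of the 10 higher. Abcg8 was lost, at 0.90, when the probes of a gene were averaged. Each array alone gave a median of 0.41 to 0.56, and Abca1 was lost, at 0.99, without the array with FAF in Cy5. Over 11 settings Npc1l1 ran from 0.68 to 0.73 and Scarb1 from 0.53 to 0.71. Dim probes have their ratios shrunk by the offset, and 1 RNA sample per diet limits every value. No analysis paired by mouse was possible because the design has 1 RNA sample per diet, although each array held both diets.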
